A study of Mus musculus with 12 samples.

Results

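Antiviral interferon-stimulated genes encode the proteins that a cell makes when interferon reaches it and that act on viral RNA, virus assembly and the interferon response itself. The 40 genes described here were taken by symbol, and all 40 were found in the deposited tables among 45703 genes. Their levels were compared in mouse CD4+ T cells with and without the glucose transporter GLUT3, the product of Slc2a3.

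Type I and type III interferons bind receptors that activate the kinases JAK1 and TYK2, and the resulting complex, which includes STAT2 and IRF9, binds interferon-stimulated response elements (ISRE) in promoters. Interferon gamma, the signature cytokine of Th1 cells, acts through a separate receptor and through promoter elements called gamma-activated sites (GAS). Many antiviral genes answer to both, and T cells keep some of them on without infection.

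The study measured RNA in 12 libraries, 3 for each of 4 groups on the C57BL/6 background. Th17 GLUT3-deficient and Th1 GLUT3-deficient cells carried the Slc2a3-fl/fl and Cd4-cre alleles, and the other Th17 and Th1 cells were labelled wild type. In these mice the Cd4 promoter drives Cre, so deletion takes place in T cells from the thymic stage that expresses CD4 onward, and other cells keep the gene. The labels do not say whether wild-type animals carried Cre or floxed alleles. In all 4 groups, naive T cells were activated through CD3 and CD28 in culture for 3 days with Th17 or Th1 polarizing cytokines, and the labels name no infection or added interferon. The labels do not say that replicates came from separate animals, so each p-value is set against differences among libraries that may be technical.

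Expression is given in TPM, which counts reads per exon length and scales every library to the same total, so levels of different genes can be compared. Whole reads recovered from it numbered 16596283 to 28496606 per library. Slc2a3 stood at 3.31 to 18.8 TPM in Th17 GLUT3-deficient and 44.6 to 379 TPM in Th17 wild-type libraries, and at 4.49 to 7.97 TPM in Th1 GLUT3-deficient and 64.7 to 398 TPM in Th1 wild-type libraries. The CD4 T cell markers Cd3e and Cd4 were detected in all 12 libraries, the Th17 cytokine Il17f was higher in every Th17 than in every Th1 library, and the Th1 factor Tbx21 was lower in every Th17 than in every Th1 library. Th17 GLUT3-deficient replicate 2 stood apart, and not in the 40 genes alone. Over genes at large, its reads differed from those of replicates 1 and 3 by a chi-square per gene of 233.63 and 309.34. Replicates 1 and 3 differed from each other by 21.47. Replicate 2 was the highest library of its group for 35 of the 40 genes, by a median of 0.83 log2 units over the other 2 libraries. Summed levels of gamma delta T cell markers (6 genes) were 166 to 261 TPM in Th17 GLUT3-deficient and 17.4 to 20.4 TPM in Th17 wild-type libraries, and 173 to 276 TPM in Th1 GLUT3-deficient and 14.8 to 33.6 TPM in Th1 wild-type libraries. Summed levels of natural killer and CD8, myeloid, and red cell and platelet markers were also higher in the GLUT3-deficient libraries of both lineages. Single genes of these lists went the other way, and the part of such cells in the results was not tested.

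The sequence in front of a few of these genes is shown with its matches to the ISRE and GAS letters. Binding to these matches was not measured. RefSeq promoter windows of GRCm38.p6, from 250 bases before to 50 bases after a transcription start, were found for 30 of the 40 genes. Both strands were searched for the ISRE core GAAANNGAAA and for GAS, TTCNNNGAA, which is its own reverse complement. The 250 bases before the start are printed 5′ to 3′ on the gene's strand, with matches in capitals. Isg15 and Phf11b rose in GLUT3-deficient Th17 cells and hold the ISRE core. Oas1a rose in both lineages and holds both motifs. Isg20 also rose in both lineages and holds no ISRE core, with a GAS match in the first of its windows alone. Bst2 and Ifit1 hold ISRE cores and did not pass the test in either lineage. Isg15 lies at chr4:156200819-156201068 (minus strand), Oas1a at chr5:120907526-120907775 (minus), Phf11b at chr14:59341331-59341580 (minus), Isg20 at chr7:78913174-78913423 (plus, the first of its annotated starts), Bst2 at chr8:71537473-71537722 (minus) and Ifit1 at chr19:34640639-34640888 (plus).
Isg15: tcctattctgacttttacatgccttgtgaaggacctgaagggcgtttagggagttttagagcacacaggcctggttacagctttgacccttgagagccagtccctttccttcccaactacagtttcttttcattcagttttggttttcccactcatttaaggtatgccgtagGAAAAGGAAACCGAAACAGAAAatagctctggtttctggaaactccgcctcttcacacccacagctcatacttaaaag
Oas1a: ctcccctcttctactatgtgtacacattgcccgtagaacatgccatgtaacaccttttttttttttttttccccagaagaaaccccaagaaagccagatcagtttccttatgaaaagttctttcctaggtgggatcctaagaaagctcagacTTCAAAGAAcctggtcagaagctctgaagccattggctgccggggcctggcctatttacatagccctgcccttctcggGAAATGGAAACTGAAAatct
Phf11b: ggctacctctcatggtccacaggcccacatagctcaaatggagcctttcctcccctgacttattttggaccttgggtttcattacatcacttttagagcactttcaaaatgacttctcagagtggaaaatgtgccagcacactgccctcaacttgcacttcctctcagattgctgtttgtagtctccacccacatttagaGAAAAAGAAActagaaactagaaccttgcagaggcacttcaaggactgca
Isg20: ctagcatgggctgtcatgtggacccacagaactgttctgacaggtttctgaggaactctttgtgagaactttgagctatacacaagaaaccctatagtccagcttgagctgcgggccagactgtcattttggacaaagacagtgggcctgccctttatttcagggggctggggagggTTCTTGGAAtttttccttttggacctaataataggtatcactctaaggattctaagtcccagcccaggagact
Bst2: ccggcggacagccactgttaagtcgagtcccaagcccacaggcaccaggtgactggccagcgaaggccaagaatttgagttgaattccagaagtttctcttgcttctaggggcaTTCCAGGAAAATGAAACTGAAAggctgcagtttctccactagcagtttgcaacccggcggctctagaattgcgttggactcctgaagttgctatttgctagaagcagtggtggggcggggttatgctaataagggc
Ifit1: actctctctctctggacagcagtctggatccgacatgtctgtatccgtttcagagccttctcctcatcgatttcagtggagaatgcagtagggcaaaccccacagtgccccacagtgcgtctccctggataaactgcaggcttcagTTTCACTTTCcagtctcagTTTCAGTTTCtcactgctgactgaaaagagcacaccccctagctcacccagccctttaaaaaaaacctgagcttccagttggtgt

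In Isg15 the capitals are 3 overlapping ISRE cores that begin 78, 72 and 66 bases before the start. Oas1a carries a GAS match 98 bases before the start and 2 overlapping ISRE cores at 20 and 14 bases, and Phf11b has 1 core at 50 bases. In Bst2 the GAS match at 136 bases overlaps the first of 2 ISRE cores, and in Ifit1 the 2 cores read on the opposite strand. The single GAS match of Isg20 begins 73 bases before the start. Among the 30 genes with a window, 16 held the ISRE core, against 3.99% of all 27025 genes with windows, and 7 held GAS, against 9.55% of all genes. The genes were taken as interferon-stimulated, so the ISRE share describes them and tests nothing.

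**Figure D1:**
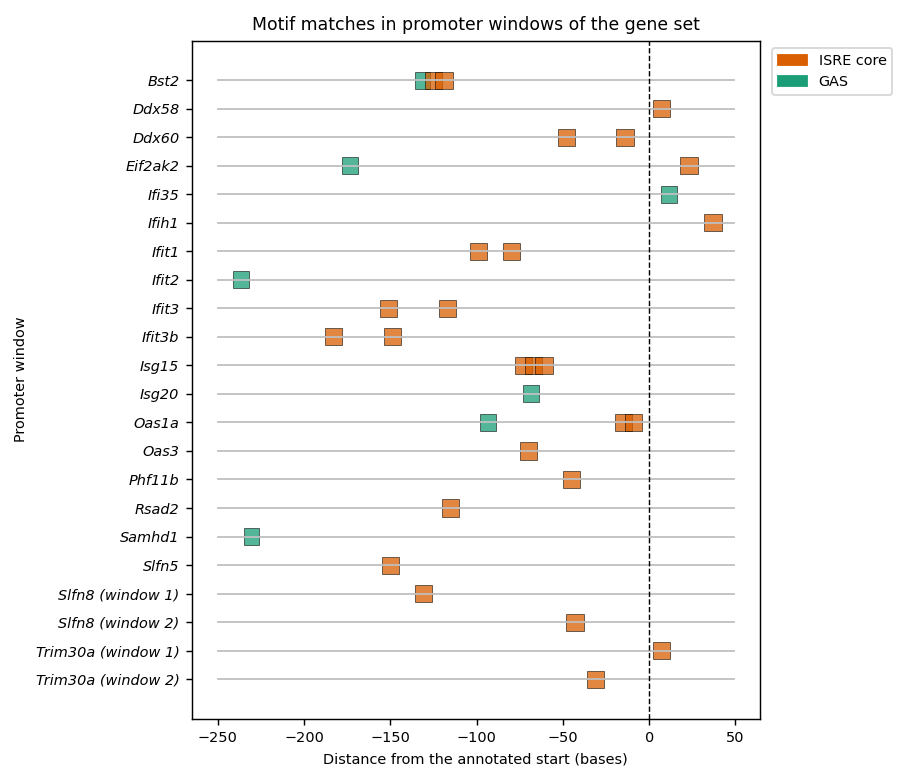
Positions of ISRE core (GAAANNGAAA) and GAS (TTCNNNGAA) matches in RefSeq promoter windows, as distance in bases from the transcription start. Of the 30 genes that have a window, those without a match are not drawn. ISRE cores lie in 16 of the 30 genes and GAS matches in 7.

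The results of the tests were also counted by motif. Of the 16 genes with the ISRE core, 5 rose in GLUT3-deficient Th17 cells and 4 were too low to test, and of the 14 without it 6 rose and 2 were not tested. Over all genes tested that have a window, these 30 included, 13.9% of those with the core and 4.61% of those without it rose in Th17 cells. In Th1 cells, 5 of the 16 rose and 5 were not tested, against 8 of the 14 with none untested, and over all genes 26.4% with the core and 19% without it rose. Some of these genes reached 1 TPM in no wild-type library and were tested only through the GLUT3-deficient ones, so they had to differ. They are Ifit3 among the 5 and Oasl2 and Ifi44 among the 6 in Th17 cells. In Th1 cells they are Oasl2, Ifi44 and Cmpk2 among the 8. The counts by motif are therefore a description. No match says only that these letters are missing from the window.

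Across the 4 groups, the genes ran from 0 in single libraries (Oas2, Mx1, Ifit3) to 1631 TPM (Ifi27l2a). Their mean was highest in Th17 GLUT3-deficient cells for 30 of the 40 genes and lowest in Th17 wild-type cells for 27. Summed over the 40 genes, the libraries held 3887, 4103 and 3409 TPM in Th17 GLUT3-deficient cells, against 1476, 1418 and 1252 TPM in Th17 wild-type cells. The Th1 GLUT3-deficient libraries held 2858, 2795 and 2791 TPM, against 1661, 2030 and 1732 TPM in Th1 wild-type libraries. The groups do not overlap in either lineage, and Ifi27l2a and Ifi47 make up much of each sum. Fewer cells of a type and less RNA per cell cannot be told apart in such bulk libraries.

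**Figure D2:**
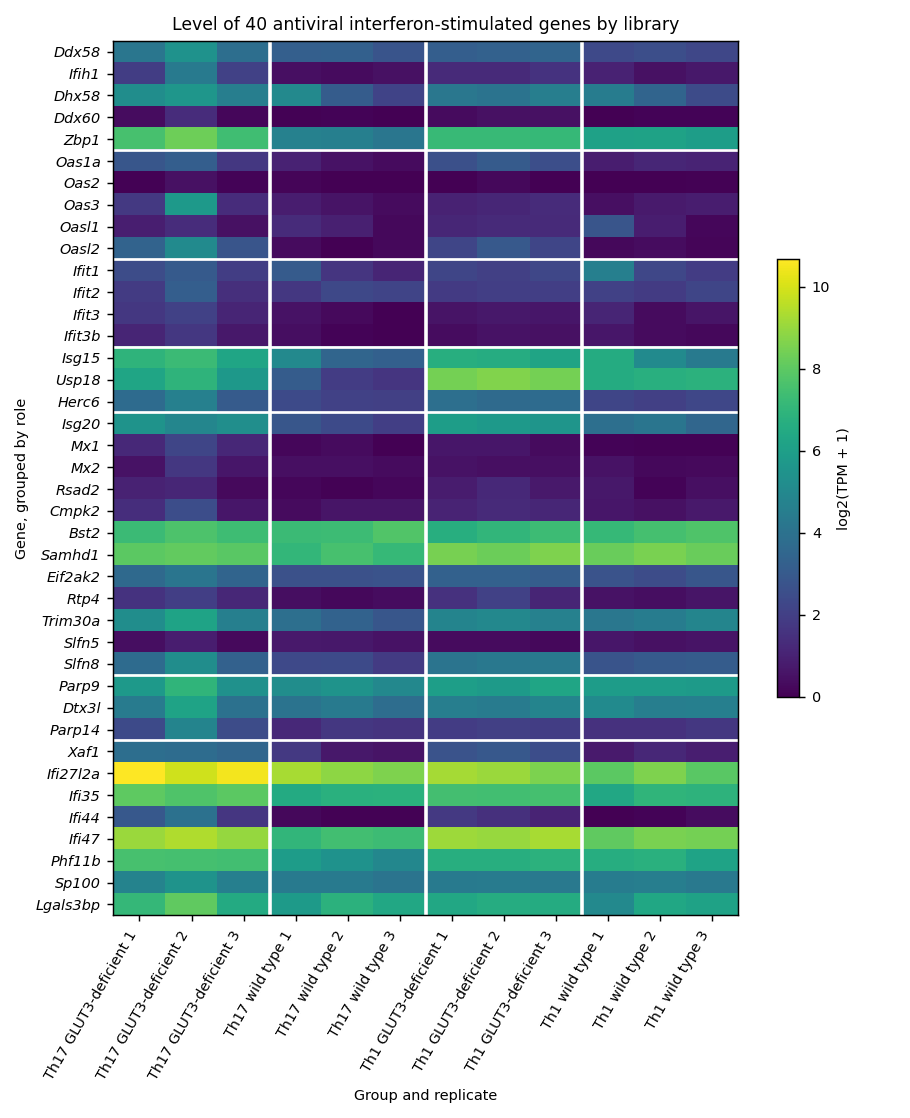
Level of each of the 40 genes in each of the 12 libraries, as log2(TPM + 1), in the order Th17 GLUT3-deficient, Th17 wild type, Th1 GLUT3-deficient, Th1 wild type. For 30 genes the mean is highest in the Th17 GLUT3-deficient libraries.

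GLUT3-deficient Th17 cells had more RNA of 16 of the 40 genes than wild-type Th17 cells, and of none less. The rises were led by the RNA and DNA sensor Zbp1, the ISG15 protease Usp18, the exonuclease Isg20 and the GTPase Ifi47, while Bst2 and Ifit2 had log2 fold changes near 0. Of the 40 genes, 32 reached the filter of 1 TPM in at least 3 of the 6 libraries. Genes were tested with limma on log2(TPM + 1) over all 13823 genes that passed, at a Benjamini-Hochberg adjusted p under 0.05, and 4.6% of all genes tested were called higher and 2.7% lower. The median log2 fold change of the 32 genes was 1.68, against 0.04 over all genes tested. Of the 32, 7 (Ifit3, Oas3, Oasl2, Mx1, Rtp4, Ifih1 and Ifi44) did not reach 1 TPM in any wild-type library and passed only through the GLUT3-deficient ones, so they had to differ, and neither this count nor the median supports a statement on the 40 genes. Without the 7, 11 of 25 genes were called.

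Seen without a filter, the GLUT3-deficient mean was higher for 38 of the 40 genes. All 3 GLUT3-deficient libraries lay above all 3 wild-type libraries for 30 genes and below them for none, against 14.1% and 13% of the 25230 genes detected. With 1 library left out, the count of calls was 9, 4 and 5 without wild-type replicate 1, 2 or 3, 4 and 8 of 25 genes tested without GLUT3-deficient replicate 1 or 3, and 17 of 25 without GLUT3-deficient replicate 2, of which 11 are among the 16. With the replicate number as a block, which the correlation between libraries of the same number allows for Th17 cells, 20 genes were called, all 16 among them.

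**Figure D3:**
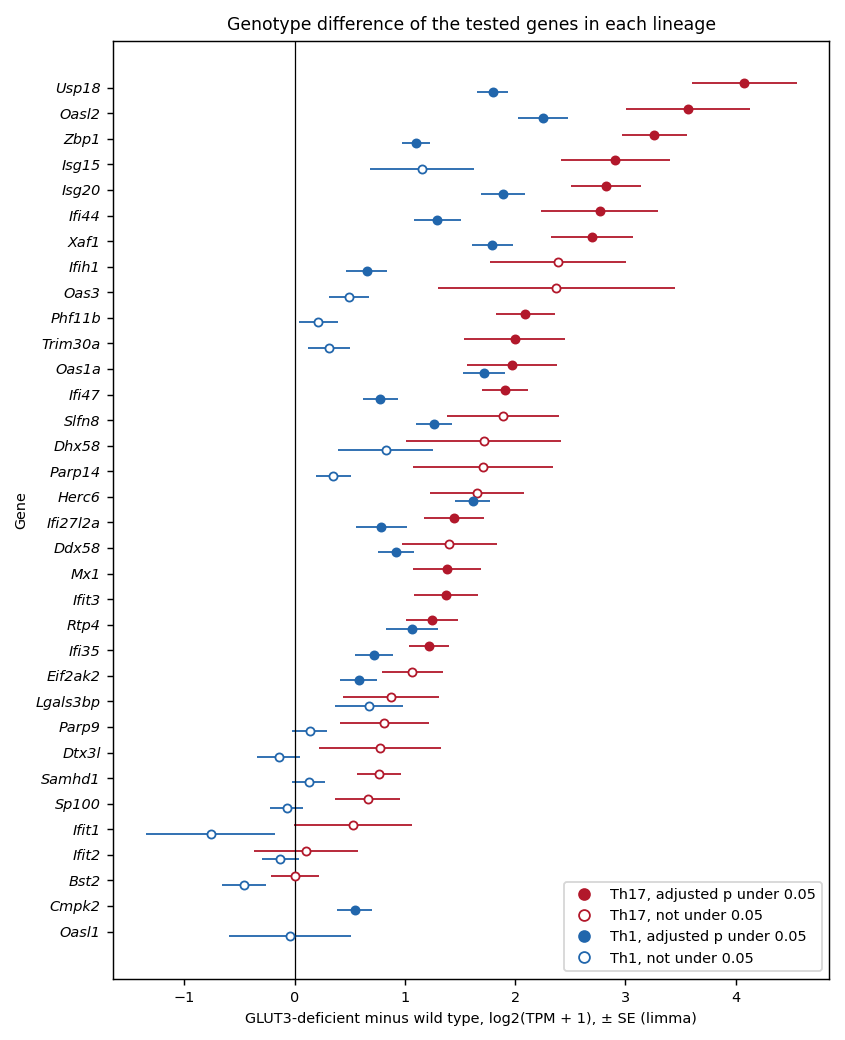
Log2 fold change, GLUT3-deficient over wild type, of each gene tested in Th17 and in Th1 cells on the log2(TPM + 1) scale, with standard errors. Filled points passed the adjusted p of 0.05, and none of them lies under 0. Usp18 has the largest fold change in Th17 cells, 4.08, and Oasl2 in Th1 cells, 2.26.

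Among the 5 sensors, 4 were tested and Zbp1 rose, with the smallest p of the 32 genes. Zbp1 (chromosome 2, 173206612 to 173218959) binds Z-form RNA and DNA and starts necroptosis. It stood at 189, 320.3 and 169.6 TPM in Th17 GLUT3-deficient libraries, against 25.1, 23.3 and 17.5 TPM in Th17 wild-type libraries. The groups are far apart, with replicate 2 the highest GLUT3-deficient library. The log2 fold change was 3.26 ± 0.29 (SE, n = 3 each, limma adjusted p = 0.00211), and the call held in all 13 alternatives. The RNA helicases that detect viral RNA did not pass. Ddx58 (RIG-I) had 17.1, 42.1 and 13.7 TPM in GLUT3-deficient and 8.27, 8.69 and 5.89 TPM in wild-type libraries, with no overlap between the groups. Its log2 fold change of 1.40 had an adjusted p of 0.1 (limma), which was 0.0402 with the block and 0.0341 without GLUT3-deficient replicate 2. Ifih1 (MDA5) had 2.83, 19.4 and 3.23 TPM in GLUT3-deficient and 0.338, 0.246 and 0.379 TPM in wild-type libraries, and 1 library carries most of its mean. Its limma adjusted p was 0.0614, and 0.0236 with the block. Dhx58 (LGP2), at 36.7, 48.4 and 22.8 TPM in GLUT3-deficient and 32.0, 7.52 and 3.46 TPM in wild-type libraries, overlapped between the groups because of wild-type replicate 1. Ddx60 reached 1 TPM in GLUT3-deficient replicate 2 alone and was not tested.

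The ISG15 system covers the ubiquitin-like modifier Isg15, Herc6, which attaches it in mice, and Usp18, which removes it and also blocks the type I interferon receptor. Usp18 stood at 76.5, 122 and 50.5 TPM in Th17 GLUT3-deficient libraries, against 7.61, 2.78 and 2.13 TPM in Th17 wild-type libraries, a ratio of the means of 19.9. The groups do not overlap. Its log2 fold change of 4.08 ± 0.48 was the largest of the 32 genes (SE, n = 3 each, limma adjusted p = 0.00586), and it was called in all 13 alternatives. Usp18 (chromosome 6, 121245906 to 121270917) lies 1.46 Mb from Slc2a3, the targeted gene, on the same chromosome, and whether this neighbourhood bears on its level was not tested. Isg15 had 121, 154 and 77.4 TPM in GLUT3-deficient and 31.2, 10.2 and 8.74 TPM in wild-type libraries. Wild-type replicate 1 was the highest of its group and still under every GLUT3-deficient library. The log2 fold change was 2.91 ± 0.49 (SE, limma adjusted p = 0.0183), and leaving out wild-type replicate 2 (0.0934), wild-type replicate 3 (0.0908) or GLUT3-deficient replicate 1 (0.0872) ended the call. Herc6 had 12.1, 24.4 and 7.36 TPM in GLUT3-deficient and 4.22, 3.20 and 3.08 TPM in wild-type libraries. These groups do not overlap either, and Herc6 missed the threshold (limma adjusted p = 0.0607) but passed with the block (0.0359) and without GLUT3-deficient replicate 2 (0.0188).

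The OAS enzymes answer to double-stranded RNA by making short chains of adenylate. Oasl2 had 9.45, 33.3 and 5.94 TPM in Th17 GLUT3-deficient libraries, against 0.238, 0.0284 and 0.175 TPM in Th17 wild-type libraries. The wild-type values rest on 8, 1 and 7 reads, so this gene is close to absent there at this depth. The log2 fold change of 3.57 ± 0.56 (SE, limma adjusted p = 0.0147) was lost with a pseudocount of 5 (0.0587) and without wild-type replicate 1 (0.065), 2 (0.0807) or 3 (0.0826). Oas1a had 6.17, 8.11 and 2.33 TPM in GLUT3-deficient and 1.02, 0.444 and 0.235 TPM in wild-type libraries and rose with a limma adjusted p of 0.0342, a call that was lost without any 1 of the wild-type libraries or GLUT3-deficient replicate 1 (up to 0.158 over the alternatives). Oas3 had 2.42, 53.4 and 1.55 TPM in GLUT3-deficient and 0.819, 0.491 and 0.256 TPM in wild-type libraries. Every GLUT3-deficient library lies above every wild-type library, but the value of replicate 2 is far above the other 2, and the gene did not pass (limma adjusted p = 0.22). Oas2 and Oasl1 were under the filter, and Oas2 stayed at or under 0.412 TPM in every library of the study.

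The Ifit proteins bind viral RNA by its 5′ end. The 4 members behaved unevenly. Ifit3 had 2.36, 3.13 and 1.13 TPM in Th17 GLUT3-deficient and 0.417, 0.199 and 0 TPM in Th17 wild-type libraries (limma adjusted p = 0.0348, lost without any 1 of the wild-type libraries, up to 0.163 over the alternatives). Its near-copy Ifit3b showed 1.17, 2.33 and 0.621 TPM in GLUT3-deficient and 0.333, 0.0795 and 0 TPM in wild-type libraries and was not tested, and reads may be split between the pair. Ifit1, at 4.59, 7.06 and 2.84 TPM in GLUT3-deficient and 7.38, 2.17 and 1.16 TPM in wild-type libraries, overlapped between groups and had a limma adjusted p of 0.575. Ifit2 had 2.63, 8.23 and 1.73 TPM in GLUT3-deficient and 2.31, 3.90 and 3.54 TPM in wild-type libraries. GLUT3-deficient replicate 1 lies within the wild-type range, replicate 3 under it and replicate 2 above it. The log2 fold change was 0.10 ± 0.47 (SE, limma adjusted p = 0.917) and -0.42 without GLUT3-deficient replicate 2.

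Of the 12 genes that act on virus replication, 8 were tested and 4 rose (Isg20, Rtp4, Mx1 and Trim30a). Isg20, an exonuclease that degrades RNA, had 44.3, 28.7 and 37.9 TPM in Th17 GLUT3-deficient libraries, against 6.22, 4.20 and 2.91 TPM in Th17 wild-type libraries. Here replicate 2 was the lowest GLUT3-deficient library, and all 3 exceed the wild-type range several-fold. The log2 fold change was 2.83 ± 0.32 (SE, n = 3 each, limma adjusted p = 0.00538), called in all 13 alternatives. Trim30a, which restrains inflammatory signalling in mice, had 36.6, 73.0 and 23.5 TPM in GLUT3-deficient and 13.8, 9.17 and 6.15 TPM in wild-type libraries (limma adjusted p = 0.0464, lost in 5 of the 6 fits with 1 library less). Rtp4 and Mx1 stayed under 4 TPM everywhere and their calls were lost without any 1 of the wild-type libraries. Samhd1, which depletes the nucleotides that viruses need, had 255, 276 and 248 TPM in GLUT3-deficient and 133, 188 and 141 TPM in wild-type libraries, with no overlap and a limma adjusted p of 0.0621. Eif2ak2 (PKR, which halts translation on double-stranded RNA) and Slfn8 had adjusted p of 0.0626 and 0.0701 with groups that do not overlap. Bst2 (tetherin, which holds budding virus at the membrane) was already abundant, at 156, 205 and 165 TPM in GLUT3-deficient and 155, 156 and 215 TPM in wild-type libraries. Its groups overlap fully, and its log2 fold change was 0.00 ± 0.21 (SE, limma adjusted p = 0.994). Rsad2, Cmpk2, Mx2 and Slfn5 were under the filter, and Mx1 and Mx2 are listed as pseudogenes in the tables, as C57BL/6 mice carry defective copies.

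Parp9, Dtx3l and Parp14 act on ADP-ribose and ubiquitin signals in the interferon response, and none of the 3 passed in Th17 cells. Parp14 had 4.26, 27.0 and 4.63 TPM in GLUT3-deficient and 1.38, 2.32 and 2.02 TPM in wild-type libraries. Parp9 had 53.4, 124 and 41.6 TPM in GLUT3-deficient and 36.7, 43.7 and 30.6 TPM in wild-type libraries, and Dtx3l had 20.5, 72.6 and 14.9 TPM in GLUT3-deficient and 15.6, 20.3 and 13.2 TPM in wild-type libraries. In each of them GLUT3-deficient replicate 2 holds by far the highest value, and without it Parp14 passed (log2 fold change 0.92, limma adjusted p = 0.0287). Parp9 and Dtx3l overlap at their starts on opposite strands and the libraries do not mark the strand, so their reads are not fully separated.

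Of the remaining 8 genes, 6 rose in GLUT3-deficient Th17 cells. Ifi47, an immunity-related GTPase, had 537, 682 and 507 TPM in Th17 GLUT3-deficient libraries, against 129, 172 and 156 TPM in Th17 wild-type libraries. The groups are well separated and replicates lie close together, with a log2 fold change of 1.91 ± 0.20 (SE, n = 3 each, limma adjusted p = 0.00441) that was called in all 13 alternatives. Phf11b, of a family of closely related PHD-finger genes, had 191, 182 and 171 TPM in GLUT3-deficient and 58.6, 42.2 and 29.3 TPM in wild-type libraries. Its GLUT3-deficient libraries lie close together and above all wild-type ones, and the log2 fold change of 2.09 ± 0.27 (SE, limma adjusted p = 0.00782) was lost when wild-type replicate 2 (0.0501) or GLUT3-deficient replicate 1 (0.0586) was left out. Xaf1, which promotes cell death, had 13.5, 12.5 and 10.6 TPM in GLUT3-deficient and 2.46, 0.620 and 0.481 TPM in wild-type libraries, again without overlap. Its log2 fold change was 2.70 ± 0.37 (SE, limma adjusted p = 0.00988), and leaving out wild-type replicate 2 (0.0656), wild-type replicate 3 (0.0654) or GLUT3-deficient replicate 1 (0.0586) ended the call. Ifi35, a partner of the protein NMI, had 261, 211 and 255 TPM in GLUT3-deficient and 91.8, 108 and 111 TPM in wild-type libraries. Its change was smaller, 1.22 ± 0.19 (SE, limma adjusted p = 0.0136), and was lost without wild-type replicate 2 (0.0795), wild-type replicate 3 (0.0722), GLUT3-deficient replicate 1 (0.103) or GLUT3-deficient replicate 3 (0.0584). Ifi27l2a, the most abundant of the 40 genes, had 1631, 969 and 1429 TPM in GLUT3-deficient and 624, 460.1 and 389 TPM in wild-type libraries (limma adjusted p = 0.0253, lost in 6 of 13 alternatives). Ifi44 rose at low levels (adjusted p = 0.0267), and its call was lost without any 1 of the wild-type libraries. Sp100 and Lgals3bp did not pass.

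**Figure D4:**
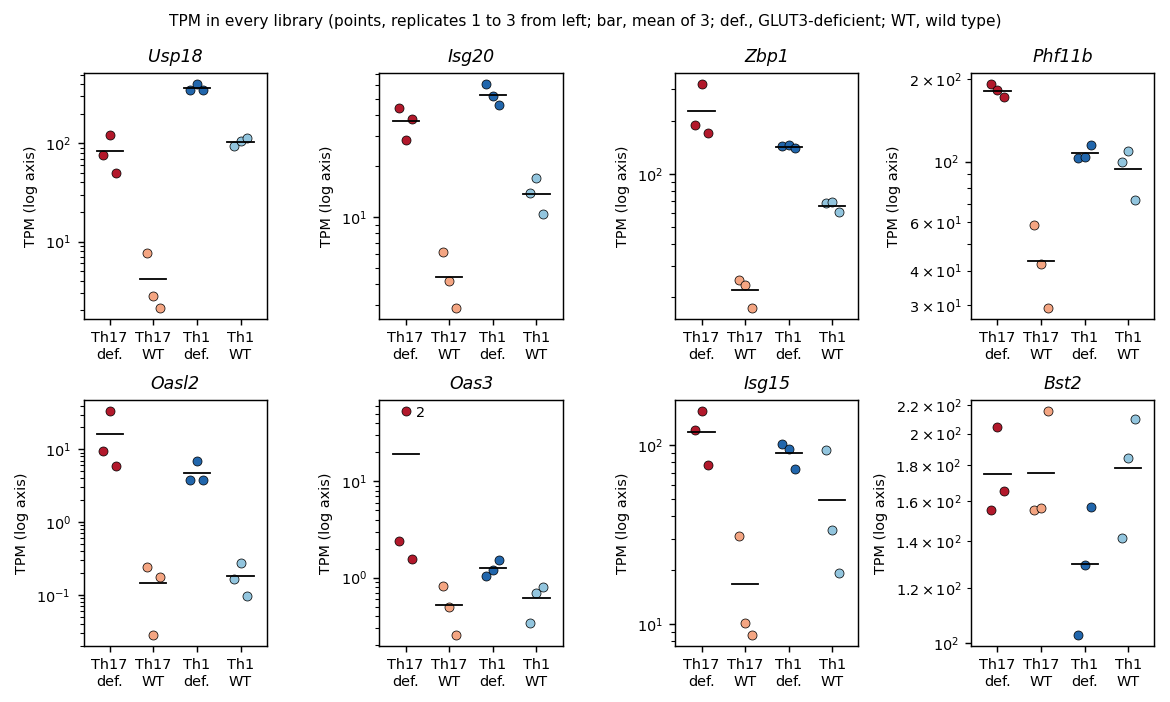
TPM in every library, on a log axis, of Usp18, Isg20, Zbp1, Phf11b, Oasl2, Oas3, Isg15 and Bst2, with the 4 groups in the order Th17 GLUT3-deficient, Th17 wild type, Th1 GLUT3-deficient, Th1 wild type, 1 point per library and a bar at the mean. Usp18, Isg20, Zbp1 and Oasl2 are separated by genotype in both lineages, Phf11b and Isg15 in Th17 cells, and Bst2 in neither. Oas3 stands at 53.4 TPM in Th17 GLUT3-deficient replicate 2.

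In Th1 cells, too, the genes that passed the filter and the test were higher without GLUT3. Of the 40 genes, 32 were tested and 17 rose, none fell, and Usp18, Herc6, Oasl2, Xaf1 and Isg20 led. In this lineage 17.6% of all 13487 genes tested were called higher and 13.7% lower, so calls were common in general. The median log2 fold change of the 32 genes was 0.69, against 0.03 over all genes tested. Of the 32, 5 (Oas3, Oasl2, Rtp4, Ifi44 and Cmpk2) passed the filter through the GLUT3-deficient libraries alone, so these figures are a description, and without the 5, 13 of 27 genes were called. Without a filter, the GLUT3-deficient libraries lay above all wild-type libraries for 22 of the 40 genes and below them for 1, Slfn5, against 18% and 15.2% of the 24888 genes detected. The count was 9, 10 and 10 of 27 genes tested without GLUT3-deficient replicate 1, 2 or 3, where Oasl2, Rtp4, Ifi44 and Cmpk2 no longer reached the filter, and 11 in the fit of all 12 libraries.

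Usp18 was at its highest in Th1 cells, with 345, 398 and 348 TPM in GLUT3-deficient libraries, against 94.2, 105 and 114 TPM in wild-type libraries. Within each group the libraries lie close together, and the groups are far apart. The log2 fold change was 1.80 ± 0.14 (SE, n = 3 each, limma adjusted p = 9.47e-05). Herc6 had 13.8, 12.1 and 12.2 TPM in Th1 GLUT3-deficient and 3.67, 3.02 and 3.77 TPM in Th1 wild-type libraries, a log2 fold change of 1.61 ± 0.16 (SE, limma adjusted p = 0.000233). Both enzymes of the ISG15 system were thus separated by genotype, whereas Isg15 itself was not. Isg15 had 101, 95.2 and 73.6 TPM in GLUT3-deficient and 94.3, 33.5 and 19.2 TPM in wild-type libraries. Wild-type replicate 1 lies within the GLUT3-deficient range and the other 2 lie under it (log2 fold change 1.16 ± 0.47 SE, limma adjusted p = 0.0933), and without replicate 1 of the wild type the adjusted p was 0.000958.

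Further Th1 genes showed the same order. Isg20 had 60.8, 51.8 and 45.9 TPM in GLUT3-deficient and 13.8, 16.9 and 10.4 TPM in wild-type libraries (log2 fold change 1.89 ± 0.20 SE, limma adjusted p = 0.000346). Zbp1 had 143, 145 and 139.8 TPM in GLUT3-deficient and 68.4, 69.1 and 60.7 TPM in wild-type libraries (1.10 ± 0.13 SE, limma adjusted p = 0.000546). Xaf1 had 5.65, 6.76 and 4.82 TPM in GLUT3-deficient and 0.705, 1.28 and 0.860 TPM in wild-type libraries (1.79 ± 0.19 SE, limma adjusted p = 0.000325). None of these groups overlap. Oas1a had 5.05, 7.41 and 4.91 TPM in GLUT3-deficient and 0.827, 1.21 and 1.09 TPM in wild-type libraries (1.72 ± 0.19 SE, limma adjusted p = 0.000409), and Oasl2 had 3.74, 6.89 and 3.73 TPM in GLUT3-deficient libraries, against 0.165, 0.276 and 0.0955 TPM in wild-type libraries that rest on 5, 10 and 3 reads (2.26 ± 0.23 SE, limma adjusted p = 0.000259). Reads of Oas1a may be shared with its close relative Oas1g. Slfn8, of the Schlafen family, had 16.1, 18.5 and 19.0 TPM in GLUT3-deficient and 5.84, 7.06 and 7.72 TPM in wild-type libraries (1.27 ± 0.16 SE, limma adjusted p = 0.000775). These 6 genes together with Usp18, Herc6 and Rtp4 kept their call with each library left out in turn, Oasl2 and Rtp4 wherever they could be tested.

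Of the sensor helicases, Ddx58 and Ifih1 passed in Th1 cells. Ddx58 had 8.22, 8.95 and 9.76 TPM in Th1 GLUT3-deficient and 4.17, 4.93 and 3.79 TPM in Th1 wild-type libraries (limma adjusted p = 0.00331, 0.0848 in the fit of all 12 libraries). Ifih1 had 1.43, 1.44 and 1.92 TPM in GLUT3-deficient and 1.00, 0.388 and 0.603 TPM in wild-type libraries (limma adjusted p = 0.0299), a call lost in 7 of 13 alternatives. Ifi47 rose by 0.78 ± 0.16 log2 units (SE, limma adjusted p = 0.00621, called in all 13 alternatives), Ifi35 by 0.72 (adjusted p = 0.0135, up to 0.0533 without GLUT3-deficient replicate 1 or 3), and Ifi44 by 1.30 (adjusted p = 0.00236, 0.0623 in the fit of all 12 libraries). Eif2ak2, Cmpk2 and Ifi27l2a passed narrowly (adjusted p = 0.0287, 0.0297 and 0.0324), the groups of Ifi27l2a overlap, and each of these 3 calls was lost without at least 1 library, Cmpk2 without wild-type replicate 2.

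Of the 32 genes, 15 did not pass in Th1 cells. Sp100, a nuclear body protein, had 19.5, 20.8 and 19.0 TPM in GLUT3-deficient and 21.2, 22.4 and 18.9 TPM in wild-type libraries, with a log2 fold change of -0.07 ± 0.15 (SE, limma adjusted p = 0.737). Oasl1 had 1.23, 1.38 and 1.42 TPM in GLUT3-deficient and 5.98, 0.793 and 0.131 TPM in wild-type libraries. Its wild-type libraries span the whole range, and the log2 fold change of -0.05 ± 0.55 (SE, limma adjusted p = 0.959) was 0.72 without wild-type replicate 1 (adjusted p = 0.0371). Ifit1 had 3.70, 3.01 and 3.79 TPM in GLUT3-deficient and 23.0, 3.88 and 2.77 TPM in wild-type libraries, where replicate 1 was again the highest, and it did not pass (adjusted p = 0.358). Bst2 had 103, 129 and 157 TPM in GLUT3-deficient and 142, 185 and 209.7 TPM in wild-type libraries, with a log2 fold change of -0.46 ± 0.20 (SE, limma adjusted p = 0.118), and passed as lower without wild-type replicate 1 (0.0312). Slfn5, under the filter, had 0.234, 0.236 and 0.184 TPM in GLUT3-deficient and 0.576, 0.412 and 0.459 TPM in wild-type libraries and was the sole gene whose GLUT3-deficient libraries all lay under the wild-type ones. Fitted without the filter it was called lower (log2 fold change -0.28, limma adjusted p = 0.0355). Ifit3, Ifit3b, Oas2, Mx1, Mx2, Rsad2 and Ddx60 were not tested in Th1 cells either. Parp14, Parp9, Dtx3l, Dhx58, Trim30a, Phf11b, Samhd1, Ifit2, Oas3 and Lgals3bp did not pass, with log2 fold changes of -0.15 to 0.82.

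Side by side, 11 genes rose in both lineages (Isg20, Usp18, Oas1a, Oasl2, Zbp1, Rtp4, Xaf1, Ifi27l2a, Ifi35, Ifi44 and Ifi47), 5 passed in Th17 and not in Th1 cells, 6 passed in Th1 and not in Th17 cells, and 18 passed in neither. Over all 13070 genes tested in both lineages, 3.81% rose in both. Of the 11, Oasl2, Rtp4 and Ifi44 passed the filter only through GLUT3-deficient libraries in both lineages, which leaves 8. A gene that passed in 1 lineage is not thereby shown to differ between them, so the difference of the genotype effects was tested over all 12 libraries. Of 35 genes tested, 2 passed, Zbp1 and Phf11b, both with the larger effect in Th17 cells, and 0.35% of all 14579 genes tested did so in that direction and 0.288% in the other. The difference was 2.16 ± 0.32 log2 units for Zbp1 (SE, limma adjusted p = 0.0116, up to 0.0539 without Th1 GLUT3-deficient replicate 1 or 2) and 1.88 ± 0.33 for Phf11b (SE, limma adjusted p = 0.0249, lost in 10 of 18 alternatives). Phf11b had 103, 104 and 115 TPM in Th1 GLUT3-deficient and 99.6, 109 and 72.5 TPM in Th1 wild-type libraries, which overlap. The difference was positive for all 35 genes, with a median of 0.89 against 0.00 over all genes. Of the 35, Mx1 passed the filter only through the Th17 GLUT3-deficient libraries, so the filter favoured a positive difference. Others, among them Oas3, Oasl2, Rtp4 and Ifi44, passed only through GLUT3-deficient libraries. This count and median are therefore a description. Without Th17 GLUT3-deficient replicate 2, the difference was positive for 26 of 33 genes, with a median of 0.59 against -0.11 over all genes. In that fit Zbp1 and Phf11b passed (1.88 log2 units for both, limma adjusted p = 0.00239 and 0.0247). Usp18 had a difference of 2.28 ± 0.51 (SE, limma adjusted p = 0.0892), which passed without Th17 wild-type replicate 1 (0.016).

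Th17 and Th1 cells also differed among themselves. In wild-type cells, 6 of 35 genes were lower in Th17 than in Th1 cells and none was higher, against 1.78% and 1.85% of all 14579 genes tested. Levels here come from 2 separate tables. Usp18 was the extreme, with 7.61, 2.78 and 2.13 TPM in Th17 and 94.2, 105 and 114 TPM in Th1 wild-type libraries, a log2 difference (Th17 minus Th1) of -4.49 ± 0.36 (SE, limma adjusted p = 2.13e-05). Zbp1, at 25.1, 23.3 and 17.5 TPM in Th17 and 68.4, 69.1 and 60.7 TPM in Th1 wild-type libraries, differed by -1.56 ± 0.23 (SE, adjusted p = 0.00166). Samhd1 had 133, 188 and 141 TPM in Th17 and 302, 371 and 301 TPM in Th1 wild-type libraries (-1.08 ± 0.17 SE, adjusted p = 0.00274), and Ifi47 had 129, 172 and 156 TPM in Th17 and 268, 371 and 346 TPM in Th1 wild-type libraries (-1.10 ± 0.18 SE, adjusted p = 0.0038). These 4 and Isg20 (adjusted p = 0.00766) were called in every alternative, and Phf11b (0.0164) was lost without 4 of the libraries, Th17 wild-type replicate 2 or 3 or Th1 wild-type replicate 1 or 2 (up to 0.0765). Without Th17 GLUT3-deficient replicate 2, which enters the common estimate of the spread, 9 genes were lower and 1, Ddx58, was higher in Th17 wild-type cells.

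Between GLUT3-deficient cells the order was less one-sided. Usp18 stayed lower in Th17 cells, at 76.5, 122 and 50.5 TPM in Th17 and 345, 398 and 348 TPM in Th1 GLUT3-deficient libraries (log2 difference -2.21 ± 0.36 SE, limma adjusted p = 0.00278). Ifi27l2a was higher in Th17 cells, at 1631, 969 and 1429 TPM in Th17 and 598, 541 and 380.2 TPM in Th1 GLUT3-deficient libraries (1.40 ± 0.27 SE, adjusted p = 0.00865, 0.0625 with median-of-ratios scaling). Mx1 was higher as well, at 1.35, 3.67 and 1.25 TPM in Th17 and 0.572, 0.553 and 0.259 TPM in Th1 GLUT3-deficient libraries (1.00 ± 0.25 SE, adjusted p = 0.0378), but kept its call in 2 of 15 alternatives. Mx1 reached 1 TPM in no other group and passed the filter only through the Th17 GLUT3-deficient libraries, so it had to differ. The 3 calls among 35 genes, Mx1 included, are a description beside 3.35% of all genes called higher and 2.56% lower. The median log2 difference over all genes was 0.14 between wild-type and 0.13 between GLUT3-deficient lineages and near 0 after median-of-ratios scaling, so levels are relative to that shift. Zbp1, Samhd1, Ifi47, Isg20 and Phf11b, called lower in Th17 than in Th1 wild-type cells, were not called between the GLUT3-deficient groups. A missing call does not make levels equal. In Th17 and Th1 GLUT3-deficient libraries the mean was 37.0 and 52.8 TPM for Isg20 and 259.9 and 354.7 TPM for Samhd1. It was 181.4 and 107.3 TPM for Phf11b and 226.2 and 142.5 TPM for Zbp1. The libraries of these genes do not overlap between the lineages, and those of Ifi47 do.

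The genes upstream of the 40 were described from lists. Of 19 type I and type III interferon genes, none reached the filter in any comparison. Ifnb1 was found with 2, 2 and 5 reads in Th17 GLUT3-deficient and 0 reads in Th17 wild-type libraries, and the highest value of the list was 1.13 TPM, Ifnl2 in Th1 wild-type replicate 1. Ifng, the interferon gamma gene and a Th1 marker, had 73.2, 119 and 54.7 TPM in Th17 GLUT3-deficient libraries, against 4.64, 1.99 and 3.77 TPM in Th17 wild-type libraries (log2 fold change 4.20, limma adjusted p = 0.00211). In Th1 cells it had 8483, 8709 and 6739 TPM in GLUT3-deficient libraries, against 733, 487 and 1115 TPM in wild-type libraries (3.43, adjusted p = 9.47e-05). Its part in the levels of the 40 genes was not tested.

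Of 6 receptor genes, 5 were tested. Ifngr2, a chain of the interferon gamma receptor, rose in Th17 cells (1.76 log2 units, limma adjusted p = 0.0207, lost in 4 of the 6 fits with 1 library less), and Ifnar1, Ifnar2 and Il10rb rose in Th1 cells (1.58, 0.69 and 0.92, Ifnar2 not without GLUT3-deficient replicate 1, at 0.0567). Irf9, the DNA-binding part of the complex that reads the ISRE, had 94.4, 128 and 70.1 TPM in Th17 GLUT3-deficient and 31.4, 23.8 and 18.7 TPM in Th17 wild-type libraries. The groups do not overlap. It rose (1.93 log2 units, limma adjusted p = 0.0142), and the call was lost without wild-type replicate 2, wild-type replicate 3 or GLUT3-deficient replicate 1 (up to 0.0831). In Th1 cells the kinase Tyk2 and Irf9 rose by 0.95 and 1.28, also with each library left out in turn.

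Of 7 interferon regulatory factors, Irf1 (an activator of interferon-responsive promoters) and Irf7 (which amplifies type I interferon) rose in Th17 cells, by 2.71 (limma adjusted p = 0.00498, called with each library left out in turn) and 3.32 (0.0224, up to 0.108 when wild-type replicate 2, wild-type replicate 3 or GLUT3-deficient replicate 1 was left out). Irf7 had 39.5, 80.8 and 23.8 TPM in Th17 GLUT3-deficient libraries, against 8.08, 2.82 and 1.38 TPM in Th17 wild-type libraries. In Th1 cells it had 11.5, 11.1 and 8.83 TPM in GLUT3-deficient libraries, against 2.74, 2.15 and 2.23 TPM in wild-type libraries. Irf1, Irf5 and Irf7 rose in Th1 cells by 1.53, 0.50 and 1.76, and the Irf5 call was lost in 5 of the 6 fits with 1 library less. Of 6 tested sensing adaptors and kinases, none passed in Th17 cells, and Tbk1 and Ikbke, kinases that activate IRF3, rose in Th1 cells (1.16 and 1.02).

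The enzymes that conjugate ISG15 numbered 3, and Ube2l6 rose in both lineages (1.83 in Th17, 1.95 in Th1 cells) while Uba7 rose in Th1 cells (1.44). The Ube2l6 call in Th17 cells was lost in 4 of the 6 fits with 1 library less. Of 5 feedback inhibitors, Socs1 rose in both lineages (1.43 in Th17 and 1.54 in Th1 cells) and Socs3 in Th1 cells (0.78). The Socs1 call in Th17 cells was lost in 3 of the 6 fits with 1 library less (up to 0.0872), and the Socs3 call without GLUT3-deficient replicate 3 (0.0799). Of 28 other antiviral genes tested in Th17 cells, 10 rose, against 4.6% of all genes tested. The count was 2 to 13 with 1 library left out. Parp12 is among the 10 and passed the filter only through the GLUT3-deficient libraries, so it had to differ. Ifitm1 and Ifitm3, which block virus entry, rose by 3.17 and 3.10. Ifitm3 had 319.7, 375 and 293 TPM in Th17 GLUT3-deficient libraries, against 43.0, 38.3 and 31.6 TPM in Th17 wild-type libraries. Slfn2 and Ly6e rose by 1.40 and 1.58, calls lost in 3 and 2 of the 6 fits with 1 library less (up to 0.067 and 0.0699). In Th1 cells 15 of 27 rose and 1 fell, against 17.6% and 13.7% of all genes tested. Oas1g is among the 15 and passed the filter only through the GLUT3-deficient libraries, so it had to differ. Parp12, Ifitm3, Mov10 and Ifitm2 rose by 3.13, 3.21, 1.71 and 1.49. No gene of these lists passed the test of the difference between lineages.

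Markers of other cells moved with the genotype as well. Of the gamma delta T cell list, 4 of 5 tested genes rose in Th17 and 5 of 5 in Th1 GLUT3-deficient cells. Sox13 of this list had 1, 1 and 1 reads in Th1 GLUT3-deficient and 7, 2 and 5 reads in Th1 wild-type libraries. Natural killer and CD8 markers (8 genes) summed to 90.7 to 108 TPM in Th17 GLUT3-deficient and 49.1 to 64.2 TPM in Th17 wild-type libraries, and to 195 to 283 TPM in Th1 GLUT3-deficient and 62.1 to 78.5 TPM in Th1 wild-type libraries. In this list 2 of 6 genes rose in Th17 cells, and in Th1 cells 4 rose while Cd8a and Cd8b1 fell. Myeloid markers (8 genes) summed to 44.2 to 64.9 TPM in Th17 GLUT3-deficient and 12.4 to 14.6 TPM in Th17 wild-type libraries, and to 25.2 to 46.1 TPM in Th1 GLUT3-deficient and 10.9 to 14.0 TPM in Th1 wild-type libraries, with 3 of 5 and 2 of 3 tested genes higher. Itgam of this list had 0, 1 and 0 reads in Th1 GLUT3-deficient and 8, 10 and 16 reads in Th1 wild-type libraries. Red cell and platelet markers (8 genes) summed to 45.8 to 114 TPM in Th17 GLUT3-deficient and 9.23 to 17.6 TPM in Th17 wild-type libraries, and to 59.2 to 198 TPM in Th1 GLUT3-deficient and 11.7 to 25.2 TPM in Th1 wild-type libraries, with 2 of 6 genes higher in each lineage. B cell markers (7 genes) summed to 132 to 198 TPM in Th17 GLUT3-deficient and 114 to 153 TPM in Th17 wild-type libraries, and to 68.5 to 475 TPM in Th1 GLUT3-deficient and 88.1 to 112 TPM in Th1 wild-type libraries, with 1 of 5 genes higher in Th17 cells. Plasmacytoid dendritic cell markers, from the cells that make most type I interferon, summed to 0.574 to 1.88 TPM in Th17 GLUT3-deficient and 2.71 to 3.64 TPM in Th17 wild-type libraries, and to 0.502 to 2.24 TPM in Th1 GLUT3-deficient and 1.56 to 2.26 TPM in Th1 wild-type libraries. In this list of 5, Pacsin1 alone was tested and fell in both lineages, and the defining genes Siglech and Klk1 were listed at 0 in all 12 libraries. Ccr9 of this list went the other way, on few reads. It had 7, 3 and 0 reads in Th17 GLUT3-deficient and 8, 2 and 1 reads in Th1 GLUT3-deficient libraries, against 0 in every wild-type library. Reads of Ly6d overlapped between the genotypes in both lineages. The part of these cells in the levels of the 40 genes was not tested. CD4 T cell markers (9 genes) summed to 8926 to 11720 TPM in Th17 GLUT3-deficient and 8402 to 9692 TPM in Th17 wild-type libraries, and to 10830 to 11540 TPM in Th1 GLUT3-deficient and 8038 to 9063 TPM in Th1 wild-type libraries. Th17 markers (5 genes) summed to 473 to 657 TPM in Th17 GLUT3-deficient and 660 to 1186 TPM in Th17 wild-type libraries, and Th1 markers (4 genes) to 96.5 to 380.1 TPM in Th17 GLUT3-deficient and 44.1 to 69.7 TPM in Th17 wild-type libraries, without overlap, and to 7205 to 9113 TPM in Th1 GLUT3-deficient and 781 to 1350 TPM in Th1 wild-type libraries. Ifng makes up most of the Th1 marker sum in Th1 libraries. In Th1 cells 3 of these 4 genes rose and Cxcr3 fell. Cxcr3 had 442, 339 and 322 reads in Th1 GLUT3-deficient and 732, 1641 and 729 reads in Th1 wild-type libraries. None of the 5 Th17 markers was called in Th17 cells. Il17a went against their sum, with 636, 598 and 679 reads in Th17 GLUT3-deficient and 252, 240 and 327 reads in Th17 wild-type libraries.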

How the data were processed

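RNA was measured in 12 libraries of mouse T cells made with a SMART-Seq and Nextera XT protocol and sequenced from 1 end without strand, per the labels' protocols. Per the submitters' processing notes, the build was GRCm38.p6 and the tools were STAR 2.7.2b, Subread, featureCounts 1.6.4, DESeq2 1.24.0, cutadapt and bcl2fastq 2.20.0.422, with no roles given. The authors deposited 1 table of TPM values per lineage, written with decimal commas, with coordinates and exon lengths for 45703 genes; gene starts equalled RefSeq's on GRCm38.p6 for 45701 of them. TPM times exon length gave whole reads (within 0.02) for 100.0% of values. For a gene of 1 kb, 3 reads are worth 0.19 to 0.44 TPM, a floor for counting error alone. No replicates agreed within sampling noise (chi-square per gene at least 12.18).

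Groups came from the labels. Each gene that reached 1 TPM in 3 or more libraries of a comparison entered limma 3.58.1 (R 4.3.3) as log2(TPM + 1), with a mean-variance trend, two-sided tests and Benjamini-Hochberg adjustment over all such genes at 0.05. This scale understates changes of low genes. Genotypes were compared on the 6 libraries of a lineage, and lineages and the difference of genotype effects on all 12. The fit was tested on simulated data. The members and lists were chosen with earlier results of these data known. Values in every library are given for the 8 members with the smallest and 2 with the largest p per genotype comparison, called members of the other contrasts (up to 4 per direction), Usp18 and up to 4 called genes per list; values of other members were added after they were seen. Some genes of the lists are not reported here. Promoter sequences are RefSeq's for GRCm38.p6; 10 members without a window are Mx1, Mx2, Usp18, Zbp1, Parp9, Rtp4, Ifi27l2a, Dhx58, Parp14 and Oas2.

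Replicate numbers recur in all groups. Deviations of same-numbered libraries correlated at 0.14, 0.41 and 0.23 between the Th17 genotypes and at 0.72, 0.26 and 0.53 between wild-type Th17 and Th1 libraries. On this correlation alone, these libraries may be paired. Between the Th1 genotypes (0.16, 0.21 and -0.07) and between GLUT3-deficient lineages (0.22, -0.04 and -0.19) the correlations do not pair them. The main fits held no replicate block in any comparison, so their p-values leave possible pairing out, and the block was an alternative only. The alternatives were pseudocounts of 0.25 and 5, no filter, median-of-ratios scaling, voom with TMM on recovered reads, all 12 libraries, the block and leaving out each library.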

Additional observations from a re-analysis of the deposited data

Results flagged for a closer look

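The test of the difference between lineages singled out 2 of the 35 genes tested. The genotype effect in Th17 cells exceeded that in Th1 cells by 2.16 log2 units for Zbp1 and by 1.88 for Phf11b (limma adjusted p = 0.0116 and 0.0249). For Zbp1 the GLUT3-deficient libraries lay above the wild-type ones in both lineages, and the call was lost without Th1 GLUT3-deficient replicate 1 (0.0539) or 2 (0.0534). For Phf11b the genotypes were separated in Th17 cells and overlapped in Th1 cells, and the call was lost in 10 of 18 alternatives, with adjusted p between 0.0104 and 0.106 over them. Groups of 3 libraries are too small for a test of single outlying libraries.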

How the results depend on the processing

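The 16 calls in Th17 cells became 9 with a pseudocount of 5 and 10 without a filter, and 4 to 17 with 1 library left out. The 17 calls in Th1 cells became 11 in the fit of all 12 libraries and 9 to 20 with 1 library left out (the 20, without wild-type replicate 1, being 19 higher and Bst2 lower). The 2 differences between lineages were 0 to 3, the 6 calls between wild-type lineages 5 to 10 (the 10 being 9 lower and Ddx58 higher), and the 3 between GLUT3-deficient lineages 2 to 6 with 1 library left out. With a replicate block the counts were 20 in Th17 cells, 18 in Th1 cells (17 higher and Bst2 lower), 2, 6 and 5, and in Th1 cells Isg15 passed (0.0306). The correlations do not pair the Th1 genotypes or the GLUT3-deficient lineages, so the last count and the Th1 one stand for a shared number only. All other alternatives gave counts within 1.5 times of those reported.

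Between genotypes, the direction of 5 genes that did not pass turned under at least 1 alternative, and of 8, 12 and 10 such genes in the difference between lineages, between wild-type and between GLUT3-deficient lineages. No called gene turned. Ifit2 in Th17 cells ran from -0.415 (without GLUT3-deficient replicate 2) to 0.464 with 1 library left out, and was -0.07 without wild-type replicate 1. Bst2 in Th17 cells was -0.068 with median-of-ratios scaling, -0.04 with voom, and -0.113 (without GLUT3-deficient replicate 2) to 0.158 with 1 library left out, below 0 also without wild-type replicate 1 or 2. Oasl1 in Th1 cells was 0.235 with a pseudocount of 0.25, 0.582 with voom, and -0.594 to 0.718 (without wild-type replicate 1) with 1 library left out. Without wild-type replicate 1, Ifit1 and Dtx3l in Th1 cells were 0.07 and 0.02, against -0.76 and -0.15 with it. The cause was not tested. Leaving out Th17 GLUT3-deficient replicate 2 moved the median of all genes to -0.11 in Th17 cells and raised the calls in Th17 cells to 16.2% of all genes. With 3 libraries a group and many wild-type values resting on few reads, genes near 1 TPM are the least certain.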
